A study of Rattus norvegicus with 6 samples.

Results

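The SLC25 mitochondrial carriers are the proteins whose genes carry the symbol Slc25a followed by a number, and they were taken here as every row of the count files with such a symbol. There were 46 such genes among the 18237 rows, and 32 of them had enough reads to be tested. The libraries came from cultured rat cells labelled NRVM, which commonly stands for ventricular myocytes of newborn rats; their culture protocol, however, describes embryonic heart tissue. One group received an siRNA against Mt2 (siMt2, n = 3 libraries) and the other a control siRNA (siNT, n = 3 libraries), and both were grown in DMEM with serum. Dexamethasone, isobutylmethylxanthine and insulin also appear in the extraction protocol of all 6 samples, and whether the cells were given them is not stated. Mt2 encodes a metallothionein, a small protein that binds zinc and copper.

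Mitochondrial carriers sit in the inner mitochondrial membrane and move nucleotides, metabolites and cofactors between the cytosol and the matrix. Each is a bundle of membrane-spanning helices that opens alternately to either side, and most exchange one substrate for another. They are made in the cytosol, bind the Tom70 receptor at the outer membrane and are inserted with the help of small Tim proteins and the TIM22 complex. In heart muscle the ADP/ATP carrier Slc25a4 and the phosphate carrier Slc25a3 supply the ATP synthase and export its product.

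Read counts summed to between 2859759 and 6817777 per siMt2 library and between 4216586 and 6567793 per siNT library. CPM is the count as a share of its library, scaled here by the TMM method unless stated. The limit a count of 0 allows, 3 counts, stood for 0.440 to 1.05 CPM of the library total, without that scaling. That limit covers counting error only. The targeted transcript was not measurably lower: Mt2a had 70.7, 87.3 and 142 CPM in siMt2, against 90.7, 170 and 93.3 CPM in siNT, with overlapping groups (log2 fold change -0.28, edgeR adjusted p = 0.631). Groups are therefore named by their labels. The labels leave it unsaid whether replicates were separate cultures, so p-values reflect library-to-library spread alone, and that spread may be technical. Of 9 cardiomyocyte markers 8 had a row and 1, Tnnt2, had enough reads to be tested, and the alpha myosin gene Myh6 had 5 counts over the siMt2 libraries and 4 over the siNT libraries. All sums of marker lists are given as CPM of the library total, without TMM scaling. The summed level of the cardiomyocyte list lay between 51.4 and 63.3 CPM in siMt2 and between 29.1 and 32.0 in siNT. Most of this sum was Tnnt2, at 57.5, 48.5 and 57.4 CPM in siMt2 and 28.2, 27.7 and 25.6 CPM in siNT. Tnnt2 was called higher (log2 fold change 1.01, edgeR adjusted p = 1.81e-07), and the sum says little of the other markers. Fibroblast markers summed to between 9457 and 13542 CPM in siMt2 and between 7394 and 7583 in siNT. Of 6 tested, 4 were higher and 0 lower, and Pdgfra had 0 and 2 counts. Most of the fibroblast sum was Col1a1, at 7795 ± 1556 CPM in siMt2 and 4701 ± 168 CPM in siNT (SD, n = 3 each). Col1a2 and Col3a1 did not pass, and Dcn, called higher, had 41 counts over the siMt2 libraries and 9 over the siNT libraries. Smooth muscle markers summed to between 4104 and 4183 CPM in siMt2 and between 2297 and 2343 in siNT (4 of 5 higher, 1 lower). Proliferation markers summed to between 844 and 863 CPM in siMt2 and between 381 and 404 in siNT (5 of 7 higher, 2 lower). These marker counts stand beside 25.8% called higher and 25.1% called lower among all genes tested. Endothelial, erythroid and adipocyte lists summed to at most 3.56 CPM in every library, and leukocyte markers to between 14.2 and 17.3 CPM in siMt2 and between 22.5 and 27.1 CPM in siNT. Most of the leukocyte sum was Cd14, the 1 marker tested, which was called lower (log2 fold change -0.73, edgeR adjusted p = 0.000445). Counts over the siMt2 and siNT libraries were 2 and 0 for Ptprc, 10 and 7 for Cd68, and 7 and 24 for Csf1r. In bulk RNA fewer cells of a type and less RNA per cell cannot be told apart, and the part of these markers in the carrier results was not tested.

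The carriers moved in both directions, and their summed level overlapped between the groups. Of the 32 carriers tested, 9 were higher and 9 lower in siMt2 at an edgeR adjusted p under 0.05, or 56.25%, against 50.9% of all 11726 genes tested (25.8% higher and 25.1% lower). The median log2 fold change of the carriers was -0.021, beside 0.00049 over all genes tested, and the median size of the change without its sign was 0.32, beside 0.33. A change of at least 1 on the log2 scale was called for 3 carriers, or 9.38%, against 8.96% of all genes tested. The groups did not overlap for 20 carriers (62.5%), against 57.6% of all genes tested. Summed over the 32 tested carriers, the level was 1934, 1935 and 1890 CPM in the siMt2 libraries, against 1922, 1826 and 1840 CPM in the siNT libraries. The 9 rises were called with each library left out in turn, while the number of falls lay between 5 and 8, the lowest without siNT replicate 3. Those falls were not all among the 9 of the full fit. Without siNT replicate 3, Slc25a3, Slc25a14, Slc25a16, Slc25a25 and Slc25a44 were lost and Slc25a4 was added. Without siMt2 replicate 2, Slc25a3, Slc25a17, Slc25a25 and Slc25a44 were lost, and Slc25a4 and Slc25a47 were added. Slc25a47 was also added without siMt2 replicate 3. DESeq2 called 9 rises and 5 falls.

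**Figure D1:**
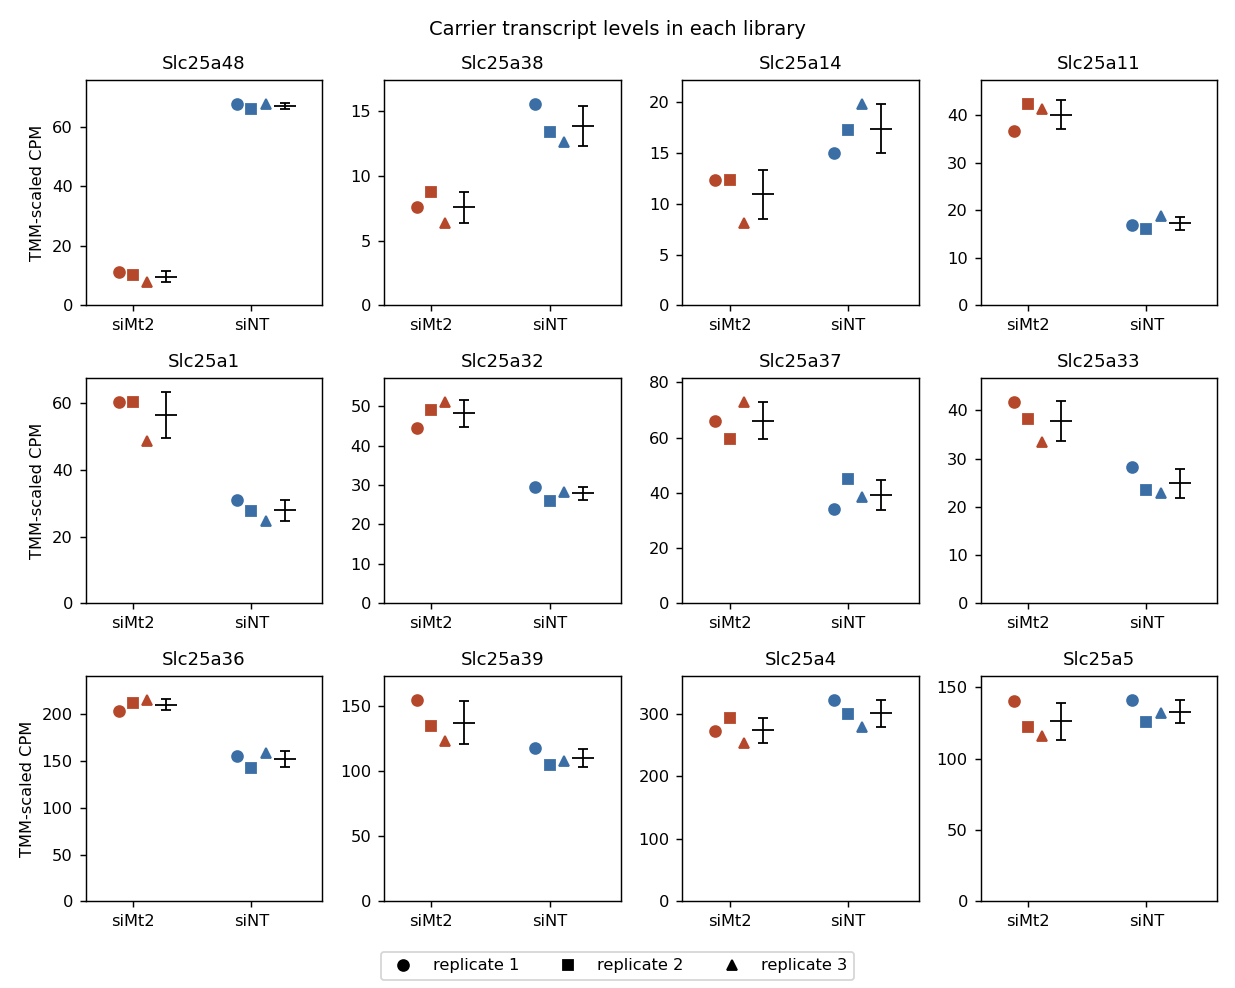
Levels of 12 carriers in each library, as TMM-scaled CPM on axes that start at 0, with siMt2 on the left and siNT on the right of each panel; marker shapes give the replicate number, and the bar beside each group is the mean with its SD (n = 3). Slc25a48 stood at 7.75 to 11.1 CPM in siMt2 and at 65.7 to 67.6 CPM in siNT, whereas the groups overlapped for Slc25a4 and Slc25a5.

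Slc25a48, which in human and mouse cells brings choline into mitochondria, had the deepest fall among the 32 tested carriers. It stood at 11.1, 10.2 and 7.75 CPM in the siMt2 libraries, against 67.6, 65.7 and 67.6 CPM in the siNT libraries. All siMt2 values lay far below all siNT values, and the siNT values were almost level. The means were 9.67 ± 1.73 CPM in siMt2 and 67.0 ± 1.07 CPM in siNT (SD, n = 3 each), so that the siMt2 level was 0.150 times the siNT level (log2 fold change -2.74, SE 0.13, edgeR adjusted p = 5.01e-13). The counts behind these levels were 76, 43 and 22 in siMt2 and 374, 275 and 441 in siNT. Over all alternatives the log2 fold change lay between -2.86 and -2.64. Slc25a20, the carnitine and acylcarnitine carrier that brings fatty acids into the matrix, stood at 48.5, 34.5 and 43.0 CPM in siMt2 and at 37.6, 42.3 and 36.8 CPM in siNT, with overlapping groups (log2 fold change 0.13, 95% interval -0.12 to 0.38, edgeR adjusted p = 0.379). Slc25a47, a liver carrier by its usual tissue, was under the filter with 3, 0 and 1 counts in siMt2 and 8, 9 and 21 counts in siNT. In a fit without the filter it was called lower (log2 fold change -2.93, edgeR adjusted p = 0.000454).

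Genes that handle choline elsewhere in the cell were called in both directions. Of 14 choline and betaine genes 10 were tested, of which 6 were higher and 3 lower in siMt2 (median log2 fold change 0.36). Over all genes tested, 25.8% were called higher and 25.1% lower, and the counts of every partner list below stand beside these same shares. Aldh7a1, which makes betaine from betaine aldehyde, stood at 100, 101 and 104 CPM in siMt2 and at 48.4, 45.4 and 58.1 CPM in siNT (log2 fold change 0.99, SE 0.09, edgeR adjusted p = 1.38e-08). The choline kinase gene Chka rose as well (0.70, SE 0.07), whereas Pcyt1a, which makes CDP-choline for phosphatidylcholine synthesis, fell (-0.58, SE 0.06). Chdh, the matrix enzyme that oxidises choline, had 4 counts over the siMt2 libraries and 0 over the siNT libraries. Of 6 carnitine genes 1 rose and 1 fell: Cpt2, the inner-membrane carnitine palmitoyltransferase, with a log2 fold change of 0.55 (SE 0.18), and Cpt1b, its outer-membrane muscle isoform partner, with -0.53 (SE 0.22, edgeR adjusted p = 0.0494). The Cpt2 call was lost without siMt2 replicate 2 (edgeR adjusted p = 0.0599) and with DESeq2, and the Cpt1b call in 11 of 15 alternatives. Cpt1c had the next smallest adjusted p and did not pass (-0.26, edgeR adjusted p = 0.202).

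The sequences upstream of the carriers that changed by at least 1 on the log2 scale are shown because they are the widest movers among the tested carriers in both directions. RefSeq's promoter table for build GRCr8 covers 250 bases before and 50 after each annotated start; it held windows for 38 of the 46 carriers and for 25 of the 32 tested. The counts were made on another build, and no coordinate was converted. Capitals mark matches, on either strand, to CCAAT, to TATAAA, to the E-box CACGTG, to TGACNNNGC (antioxidant response element core), to TGCACNC or TGCGCNC (metal response element core) and to the NRF1 consensus. The windows of Slc25a48 were chr17:8172327-8172626 and chr17:8166750-8167049 on the minus strand, that of Slc25a11 chr10:55859011-55859310 on the minus strand and that of Slc25a1 chr11:96559804-96560103 on the plus strand.
Slc25a48, upstream start: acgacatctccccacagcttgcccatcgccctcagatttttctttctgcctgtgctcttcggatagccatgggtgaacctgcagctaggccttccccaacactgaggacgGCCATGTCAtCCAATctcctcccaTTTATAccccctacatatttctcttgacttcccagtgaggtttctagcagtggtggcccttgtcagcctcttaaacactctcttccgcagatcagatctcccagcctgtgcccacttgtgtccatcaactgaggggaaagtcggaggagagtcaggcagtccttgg
Slc25a48, inner start: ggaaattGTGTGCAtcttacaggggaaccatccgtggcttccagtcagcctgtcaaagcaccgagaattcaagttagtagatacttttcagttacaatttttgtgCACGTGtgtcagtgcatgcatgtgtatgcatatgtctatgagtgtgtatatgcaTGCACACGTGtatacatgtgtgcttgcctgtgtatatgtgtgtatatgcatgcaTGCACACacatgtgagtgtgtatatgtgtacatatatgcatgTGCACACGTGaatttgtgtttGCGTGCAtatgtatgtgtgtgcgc
Slc25a11: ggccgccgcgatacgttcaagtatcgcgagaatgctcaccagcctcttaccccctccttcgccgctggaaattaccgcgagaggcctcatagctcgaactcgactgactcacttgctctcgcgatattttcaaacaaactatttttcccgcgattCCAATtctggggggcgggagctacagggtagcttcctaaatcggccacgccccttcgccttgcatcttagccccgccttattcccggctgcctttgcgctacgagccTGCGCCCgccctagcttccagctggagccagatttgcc
Slc25a1: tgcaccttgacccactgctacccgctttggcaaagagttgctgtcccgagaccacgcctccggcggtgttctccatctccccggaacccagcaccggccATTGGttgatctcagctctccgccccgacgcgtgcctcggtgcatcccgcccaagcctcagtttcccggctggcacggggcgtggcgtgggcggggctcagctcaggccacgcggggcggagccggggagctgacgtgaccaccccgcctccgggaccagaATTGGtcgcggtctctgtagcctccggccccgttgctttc
The upstream Slc25a48 window holds an antioxidant core at position -140 from the start, a CCAAT box at -130 and a TATA box match at -116. The inner window holds 3 E-boxes, at -145, -87 and 9, and 5 metal response cores, and an E-box overlaps a metal response core in TGCACACGTG. Much of this inner window is made of repeated TG, TA and CA letters, and several of its matches lie in that stretch. Its share of G and C, 42.7%, is the lowest among the windows of tested carriers. Slc25a11 has a CCAAT box at -95 and a metal response core at 12, and Slc25a1 has CCAAT boxes on the opposite strand at -151 and 10. Of all 33469 windows, 37.5% hold a CCAAT box, 24.2% a metal response core, 12.1% the antioxidant core, 14.2% the TATA match, 6.42% the E-box and 0.852% the NRF1 consensus. Among the 26 windows of tested carriers 14 hold a CCAAT box, 14 a metal response core, 3 the antioxidant core, 2 the TATA match, 3 the E-box and 0 the NRF1 consensus. The carrier windows are richer in G and C, with a median of 63.2% against 51.7% over all windows. A match describes letters and not a bound site, and a missing match says only that these letters are not in the window.

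The largest rises among the tested carriers were those of Slc25a11, the 2-oxoglutarate and malate carrier that closes the malate-aspartate shuttle, and Slc25a1, the citrate carrier that exports the carbon for fatty acid synthesis. Slc25a11 stood at 36.6, 42.3 and 41.2 CPM in the siMt2 libraries, against 17.0, 16.0 and 18.7 CPM in the siNT libraries. Slc25a1 stood at 60.3, 60.3 and 48.6 CPM in siMt2, against 31.1, 27.7 and 24.7 CPM in siNT. The groups were wide apart for both. Slc25a11 was 2.29 times its siNT level (log2 fold change 1.19, SE 0.12, edgeR adjusted p = 1.16e-07) and Slc25a1 was 2.06 times its own (1.04, SE 0.12, edgeR adjusted p = 3.01e-07). Slc25a10, the carrier that exchanges malate or succinate for phosphate, stood at 9.05, 14.0 and 10.9 CPM in siMt2 and at 11.6, 12.4 and 14.4 CPM in siNT, with overlapping groups (-0.21, 95% interval -0.63 to 0.21, edgeR adjusted p = 0.409). The summed level of these 3 carriers was 108 ± 8.08 CPM in siMt2 and 57.9 ± 1.72 CPM in siNT (SD, n = 3 each).

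The gene next to Slc25a11 moved the other way. Rnf167, which encodes a RING-type ubiquitin ligase, starts 194 bases away from Slc25a11 on the opposite strand in the RefSeq annotation. It stood at 14.7, 9.93 and 13.4 CPM in siMt2, against 23.7, 25.8 and 28.05 CPM in siNT, and fell (log2 fold change -1.01, SE 0.16, edgeR adjusted p = 2.63e-05). Carriers with a tested gene starting back to back within 1000 bases were looked up after their values were known, and 2 further tested carriers had one. The search used the promoter windows, so the 7 tested carriers without a window could not be searched. Dbf4, a regulator of the replication kinase Cdc7, starts 203 bases from Slc25a40 and rose (8.08 ± 0.358 CPM in siMt2, 2.73 ± 0.295 CPM in siNT, log2 fold change 1.53, edgeR adjusted p = 0.000114), while the log2 fold change of Slc25a40 was 0.02. Cyp39a1, a sterol hydroxylase gene, starts 248 bases from Slc25a27 and had a log2 fold change of -0.80 (edgeR adjusted p = 0.0241), while that of Slc25a27 was 0.22. The Cyp39a1 call was lost without siMt2 replicates 1 or 2 or siNT replicates 1 or 2 (edgeR adjusted p up to 0.125), with DESeq2 and in thinned libraries.

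Enzymes that use citrate and the other carboxylates were mixed. Of 9 tested, 4 were higher and 3 lower in siMt2. Pck2, the mitochondrial phosphoenolpyruvate carboxykinase, had the largest change, at 95.04, 95.3 and 87.0 CPM in siMt2 against 35.4, 29.2 and 31.1 CPM in siNT (log2 fold change 1.54, SE 0.09). Acly, the cytosolic enzyme that splits the citrate exported by Slc25a1, fell instead, at 162, 173 and 196 CPM in siMt2 against 257, 253 and 249 CPM in siNT (-0.53, SE 0.06, edgeR adjusted p = 4.28e-07). Idh2, the matrix NADP-dependent isocitrate dehydrogenase, rose (0.37, SE 0.06). 

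The paralogs Slc25a12 and Slc25a13 both exchange matrix aspartate for cytosolic glutamate, and of the pair Slc25a13 passed the test. Slc25a13 stood at 27.6, 31.5 and 32.7 CPM in siMt2, against 22.9, 19.1 and 23.1 CPM in siNT (log2 fold change 0.46, SE 0.13, edgeR adjusted p = 0.00563). Slc25a12 stood at 33.0, 28.6 and 34.5 CPM in siMt2, against 37.8, 39.2 and 35.4 CPM in siNT (-0.22, 95% interval -0.45 to 0.01, edgeR adjusted p = 0.0975). With libraries thinned to the smallest depth, Slc25a13 had a log2 fold change of 0.16 and was not called (edgeR adjusted p = 0.529). The glutamate carriers Slc25a18 and Slc25a22 were near the detection limit, Slc25a22 with 1, 1 and 1 counts in siMt2 and 2, 8 and 3 in siNT. Of the 7 enzymes of the malate-aspartate shuttle and glutamate list 1 rose and 4 fell. Got1, the cytosolic aspartate aminotransferase, rose (0.64, SE 0.06), while the matrix glutamate dehydrogenase gene Glud1 (-0.29, SE 0.05) and the cytosolic malate dehydrogenase gene Mdh1 (-0.33, SE 0.07) fell.

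**Figure D2:**
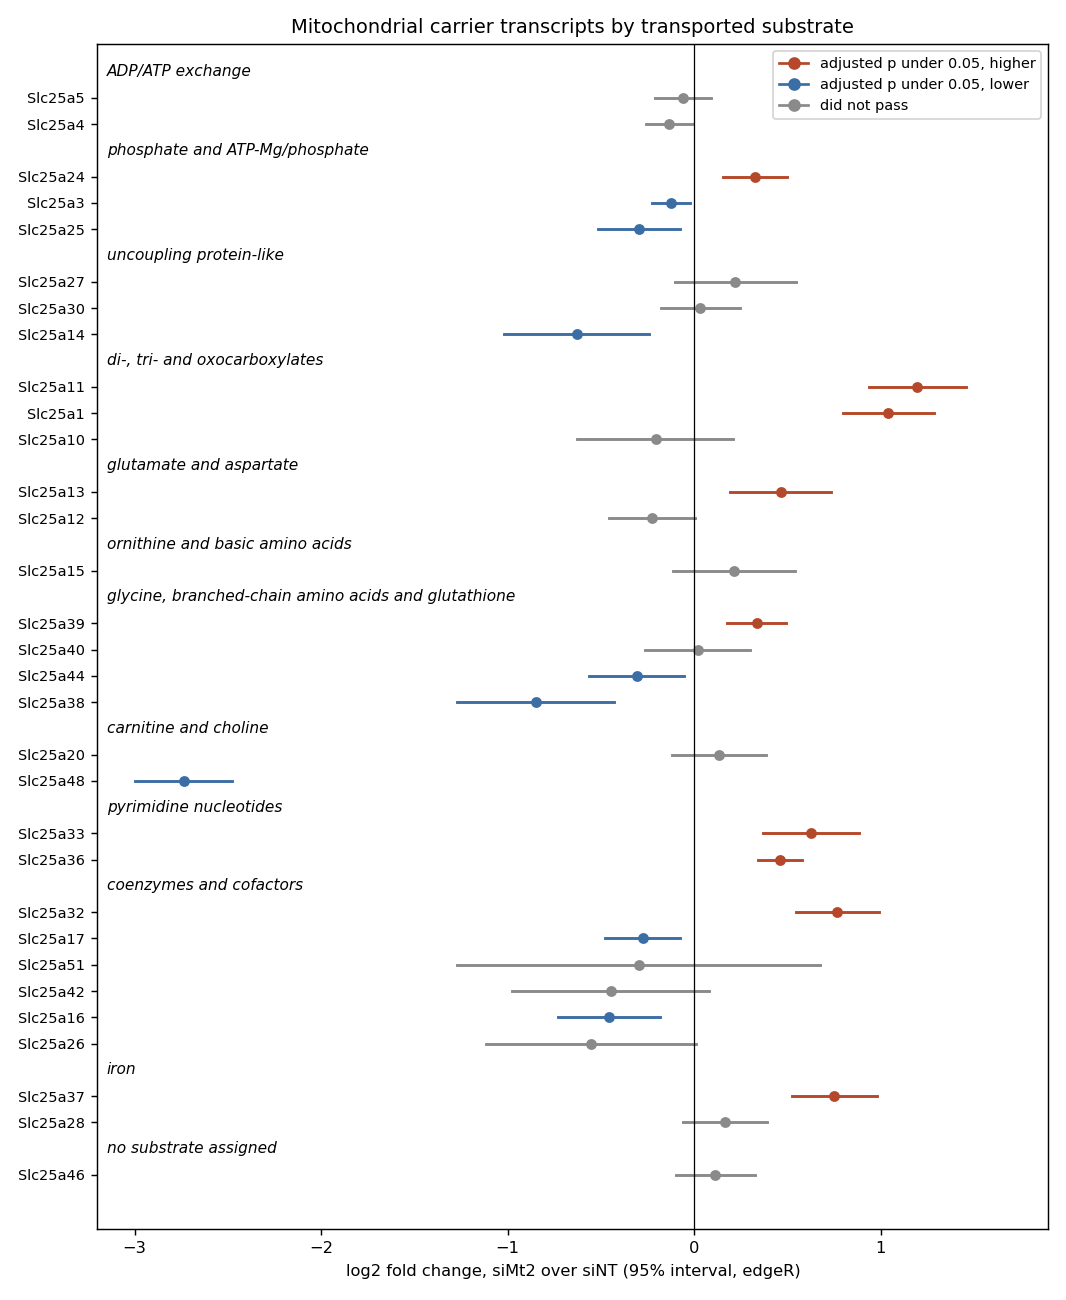
Log2 fold change of the tested carriers reported, siMt2 over siNT, with its 95% interval from edgeR, grouped by transported substrate; red marks an adjusted p under 0.05 with a higher level, blue one with a lower level, grey the rest. Slc25a48 stands apart at -2.74, Slc25a11 and Slc25a1 lie at 1.19 and 1.04, and the remaining carriers shown lie between -0.85 and 0.77.

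Ratios between paralogs were compared within each library, since the ratio of 2 counts from the same library is free of library scaling. The level of this ratio depends on transcript lengths, so only its difference between the groups is read. Of 6 pairs, 5 had both members tested. The log2 ratio of Slc25a12 to Slc25a13 was 0.26, -0.14 and 0.08 in the siMt2 libraries and 0.72, 1.03 and 0.61 in the siNT libraries, without overlap. Its mean was 0.07 ± 0.20 in siMt2 and 0.79 ± 0.22 in siNT (SD, n = 3 each), a difference of -0.72. A two-sided exact permutation test returned p = 0.1, the smallest that 3 against 3 libraries allow, and 0.333 after Benjamini-Hochberg adjustment over the 5 pairs. Of the 5 pairs this was the 1 whose groups did not overlap. The differences of the others were 0.58 for Slc25a37 to Slc25a28, 0.30 for Slc25a39 to Slc25a40, 0.14 for Slc25a33 to Slc25a36 and -0.06 for Slc25a4 to Slc25a5 (exact two-sided permutation p between 0.2 and 0.7).

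**Figure D3:**
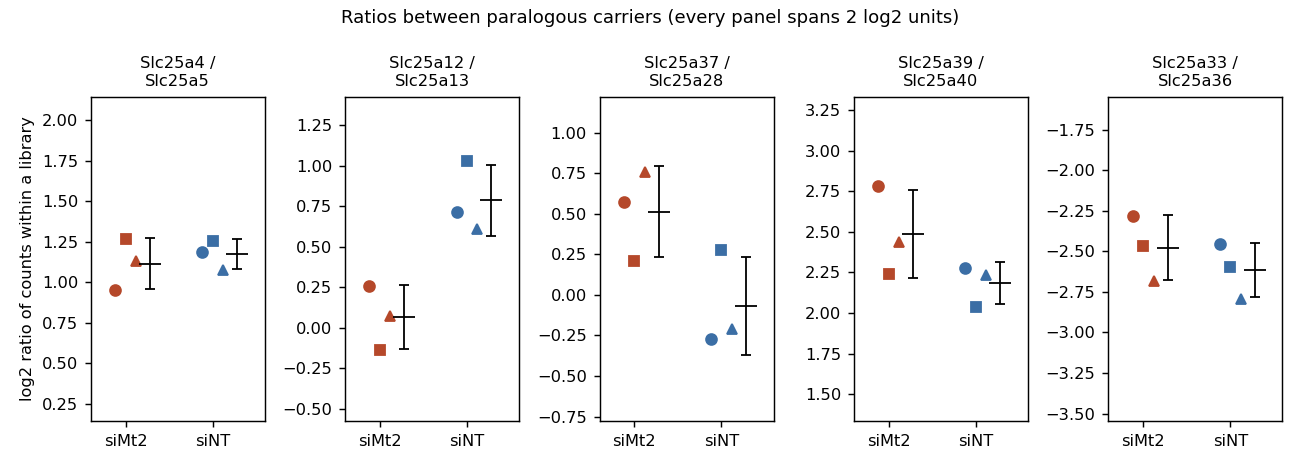
Log2 ratio of the counts of 2 paralogous carriers in each library, siMt2 left and siNT right in each panel; circles, squares and triangles are replicates 1, 2 and 3, bars give mean and SD (n = 3), and every panel spans 2 log2 units. The Slc25a12 to Slc25a13 ratio lies between -0.14 and 0.26 in siMt2 and between 0.61 and 1.03 in siNT; the groups of the other panels overlap.

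The carriers that feed the ATP synthase changed little. Slc25a4, the ADP/ATP carrier typical of heart and skeletal muscle, stood at 272, 294 and 254 CPM in siMt2 and at 322, 300.0 and 279 CPM in siNT. Slc25a5, the ADP/ATP carrier typical of dividing cells, stood at 141, 122 and 116 CPM in siMt2 and at 141, 125 and 132 CPM in siNT. The groups overlapped for both, and neither passed: the log2 fold change was -0.13 for Slc25a4 (SE 0.06, 95% interval -0.26 to -0.01, edgeR adjusted p = 0.0723) and -0.06 for Slc25a5 (SE 0.07, 95% interval -0.21 to 0.09, edgeR adjusted p = 0.5). Slc25a4 was called lower in 4 of 15 alternatives: without the filter, with the replicate block, without siMt2 replicate 2 and without siNT replicate 3 (adjusted p over all alternatives between 0.0137 and 0.311). Slc25a6 had 2 counts over the siMt2 libraries and 3 over the siNT libraries.

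Slc25a3, the phosphate carrier, which also brings in copper for cytochrome oxidase, stood at 288, 308 and 323 CPM in siMt2 and at 337, 333 and 327 CPM in siNT. Its fall was small (log2 fold change -0.12, SE 0.05, edgeR adjusted p = 0.0429), and the call was lost without siMt2 replicate 1 (edgeR adjusted p = 0.276) and in 8 further alternatives. The calcium-regulated ATP-Mg and phosphate carriers parted. Slc25a24 stood at 95.5, 101 and 91.2 CPM in siMt2 against 84.5, 76.2 and 69.9 CPM in siNT and rose (0.33, SE 0.08, edgeR adjusted p = 0.0022). Slc25a25 stood at 31.4, 30.3 and 28.9 CPM in siMt2 against 36.3, 36.8 and 38.6 CPM in siNT and fell (-0.30, SE 0.11, edgeR adjusted p = 0.0251), a call lost in 6 of 15 alternatives (without siMt2 replicate 2, siMt2 replicate 3 or siNT replicate 3, upper quartile scaling, DESeq2, thinned libraries). Slc25a23 was under the filter, with 3 counts over the siMt2 libraries and 11 over the siNT libraries.

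Both carriers that move pyrimidine nucleotides into the matrix, where mitochondrial DNA and RNA are made, rose. Slc25a36 stood at 204, 212 and 216 CPM in siMt2, against 156, 142 and 158 CPM in siNT (log2 fold change 0.46, SE 0.06, edgeR adjusted p = 1.16e-06). Slc25a33 stood at 41.8, 38.3 and 33.5 CPM in siMt2, against 28.4, 23.4 and 22.8 CPM in siNT (0.63, SE 0.12, edgeR adjusted p = 0.000277). Neither overlapped between the groups. A row named Slc25a36l1, a near copy by its name, held 69 counts in all, 1.28% of those of Slc25a36, and how reads shared between them were counted is not known. Tfam, which packs and transcribes mitochondrial DNA, rose by 0.71 (SE 0.10), and the 13 mitochondrially encoded transcripts took 3.73%, 3.80% and 4.18% of the counts in siMt2 and 3.52%, 3.55% and 3.71% in siNT. In the list of 10 tested genes of mitochondrial biogenesis and fusion 2 rose and 2 fell, the fission gene Dnm1l rising (0.38, SE 0.07) and the mitochondrial transcription factor gene Tfb2m falling (-0.54, SE 0.12); the Tfb2m call was lost in thinned libraries.

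Slc25a37, mitoferrin-1, best known from red cell precursors where it brings iron in for heme, rose, and its paralog Slc25a28, mitoferrin-2, did not pass. Slc25a37 stood at 65.8, 59.6 and 72.9 CPM in siMt2, against 34.3, 44.9 and 38.6 CPM in siNT, or 1.68 times the siNT level (log2 fold change 0.75, SE 0.11, edgeR adjusted p = 8.43e-06). Slc25a28 stood at 44.2, 51.6 and 43.0 CPM in siMt2 and at 41.4, 37.0 and 44.8 CPM in siNT, with overlap (0.16, 95% interval -0.06 to 0.39, edgeR adjusted p = 0.217). The erythroid marker Alas2 had 4 counts over the siMt2 libraries and 1 over the siNT libraries. Of 9 tested genes of iron-sulfur and heme synthesis 1 rose and 2 fell. Fech, the ferrochelatase that inserts iron into heme, rose (0.65, SE 0.13), while Cpox, an earlier enzyme of the same pathway, fell to 31.7 ± 1.01 CPM in siMt2, against 61.8 ± 1.36 CPM in siNT (-0.96, SE 0.10). Abcb10, an inner-membrane transporter that stabilises mitoferrin-1 in mouse red cell precursors, fell (-0.44, SE 0.11, edgeR adjusted p = 0.00337).

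Of the 7 tested carriers of coenzymes and cofactors, 1 rose and 3 fell. Slc25a32, the folate and FAD carrier, stood at 44.4, 49.0 and 51.1 CPM in siMt2, against 29.4, 26.1 and 28.2 CPM in siNT (log2 fold change 0.77, SE 0.11, edgeR adjusted p = 5.59e-06). The groups were wide apart. Slc25a16, linked to coenzyme A, fell with overlapping groups, at 28.2, 28.6 and 39.4 CPM in siMt2 and 37.9, 41.3 and 48.6 CPM in siNT (-0.46, SE 0.13), and the call was lost without siMt2 replicate 1 or siNT replicate 3. Slc25a17, the peroxisomal member of the family, fell (-0.28, SE 0.10), a call lost without siMt2 replicate 2, siNT replicate 1 or siNT replicate 2, with DESeq2 and in thinned libraries. The coenzyme A carrier Slc25a42 (-0.45, 95% interval -0.98 to 0.08), the S-adenosylmethionine carrier Slc25a26 (-0.55, 95% interval -1.12 to 0.01) and the NAD carrier Slc25a51 (-0.30, 95% interval -1.27 to 0.67) did not pass.

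Partners of these carriers were called in both directions. Of 8 folate and S-adenosylmethionine genes 3 rose and 0 fell by edgeR, with 5 not passing. Aldh1l2, which oxidises formyl-folate in the matrix, stood at 37.5, 37.4 and 39.4 CPM in siMt2, against 21.7, 17.0 and 19.3 CPM in siNT (log2 fold change 0.97, SE 0.12). Mtfmt, which formylates the mitochondrial initiator tRNA, rose (0.81, SE 0.21), and Shmt2, the matrix serine hydroxymethyltransferase, had a small rise (0.18, SE 0.07) whose call was lost in 7 alternatives, such as without siMt2 replicate 1 (edgeR adjusted p = 0.194). Of 8 genes of coenzyme and NAD synthesis 1 rose and 2 fell. The pantothenate kinase gene Pank1, at the start of coenzyme A synthesis, stood at 23.6, 23.2 and 25.4 CPM in siMt2, against 55.1, 59.0 and 58.2 CPM in siNT (-1.26, SE 0.10), and Pank3 fell less (-0.25, SE 0.06).

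Slc25a38, the glycine carrier that supplies heme synthesis in yeast and human red cell precursors, fell, and Slc25a39, one of the glutathione carriers, rose. Slc25a38 stood at 7.59, 8.75 and 6.34 CPM in siMt2, against 15.5, 13.4 and 12.6 CPM in siNT (log2 fold change -0.85, SE 0.20, edgeR adjusted p = 0.00143). Slc25a39 stood at 155, 135 and 123 CPM in siMt2, against 118, 105 and 108 CPM in siNT (0.33, SE 0.08, edgeR adjusted p = 0.00118). Its paralog Slc25a40 stood at 22.5, 28.4 and 22.5 CPM in siMt2 and at 24.2, 25.6 and 22.8 CPM in siNT, with overlap (0.02, 95% interval -0.26 to 0.30). Slc25a44, a branched-chain amino acid carrier, had a fall of 0.31 with overlapping groups (log2 fold change -0.31, SE 0.12, edgeR adjusted p = 0.0423), and this call was lost in 10 of 15 alternatives. Slc25a15, which exchanges ornithine for citrulline, stood at 18.1, 15.4 and 18.0 CPM in siMt2 and at 14.6, 14.6 and 15.2 CPM in siNT; the groups did not overlap, but it did not pass (0.21, 95% interval -0.11 to 0.54, edgeR adjusted p = 0.274). The basic amino acid carriers Slc25a2 and Slc25a29 were under the filter.

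Partners of the amino acid carriers included the largest rise among the partner genes. Pycr1, the mitochondrial enzyme that makes proline, stood at 69.9, 67.4 and 70.8 CPM in siMt2, against 14.1, 16.5 and 12.3 CPM in siNT (log2 fold change 2.3, SE 0.12, edgeR adjusted p = 2.58e-12). Of 6 tested ornithine and proline genes 2 rose and 0 fell, the other rise being that of the mitochondrial arginase gene Arg2 (1.19, SE 0.32). Aldh18a1, the enzyme before Pycr1 in proline synthesis, did not pass: its levels were 2.77, 2.13 and 4.58 CPM in siMt2 and 5.24, 2.39 and 53.5 CPM in siNT, so that siNT replicate 3 alone was high (edgeR adjusted p = 0.216). Branched-chain amino acid genes were called higher in 2 and lower in 2 of 6 cases, with the kinase gene Bckdk at 0.26, the aminotransferase gene Bcat2 at 0.31 and the transacylase gene Dbt at -0.19 on the log2 scale. The Bcat2 call was lost without siMt2 replicate 1, siMt2 replicate 2 or siNT replicate 3, and the Dbt call without siMt2 replicate 1 or siNT replicate 2 and with upper quartile scaling. Both calls were also lost with DESeq2 and in thinned libraries.

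Slc25a14, a relative of the uncoupling proteins whose substrate is not settled, fell, and its relatives Slc25a27 and Slc25a30 did not pass. Slc25a14 stood at 12.3, 12.3 and 8.10 CPM in siMt2, against 15.0, 17.2 and 19.8 CPM in siNT (log2 fold change -0.63, SE 0.19, edgeR adjusted p = 0.00805). Leaving out siNT replicate 3 ended this call (edgeR adjusted p = 0.0648). Slc25a27 had a log2 fold change of 0.22 (95% interval -0.10 to 0.54) and Slc25a30 one of 0.03 (95% interval -0.18 to 0.25). The uncoupling protein gene Ucp2, which belongs to the family without carrying its symbol, stood at 50.8, 54.4 and 53.9 CPM in siMt2, against 26.6, 27.5 and 27.4 CPM in siNT, and rose (0.96, SE 0.10, edgeR adjusted p = 1.46e-07). Ucp1 and Ucp3 had no row among the counts. Of the other relatives, Mtch2, an insertase of the outer membrane, was lower by a small step (-0.16, SE 0.06), a call lost in 5 of 15 alternatives (without siNT replicate 1 or siNT replicate 2, upper quartile scaling, DESeq2, thinned libraries), and Mtch1 did not pass (-0.13, edgeR adjusted p = 0.0571). Slc25a46, an outer-membrane member that acts in mitochondrial shape, did not pass (0.11, 95% interval -0.10 to 0.33).

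The machinery that delivers carriers to the inner membrane changed in part, in both directions. Of 9 tested genes 3 rose and 3 fell. Tomm70, the outer-membrane receptor for carrier precursors, stood at 76.9, 83.5 and 81.7 CPM in siMt2, against 111, 99.4 and 95.8 CPM in siNT (log2 fold change -0.34, SE 0.08). The small chaperones of the intermembrane space encoded by Timm8a1 (0.43, SE 0.11) and Timm9 (0.41, SE 0.11) rose, the Timm9 call being lost in thinned libraries. Other small Tim genes did not move together. Timm8b rose (0.36, edgeR adjusted p = 0.0479) and Timm10 fell (-0.50, edgeR adjusted p = 0.0362), each with overlapping groups, while Timm10b and Timm13 did not pass. DESeq2 called 2 rises and 2 falls in this list. Timm22, the insertion channel itself, did not pass (-0.02, SE 0.15, edgeR adjusted p = 0.928). Agk, also in this list, fell without overlap of the groups (-0.40, SE 0.11, edgeR adjusted p = 0.0069). Among transporters of other families 3 of 8 rose and 2 fell: Sfxn3, a sideroflexin that carries serine, rose by 1.14 (SE 0.09), the outer-membrane channel gene Vdac1 rose by 0.56 (SE 0.05) and the pyruvate carrier subunit gene Mpc1 had a log2 fold change of -0.63 (SE 0.09).

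**Figure D4:**
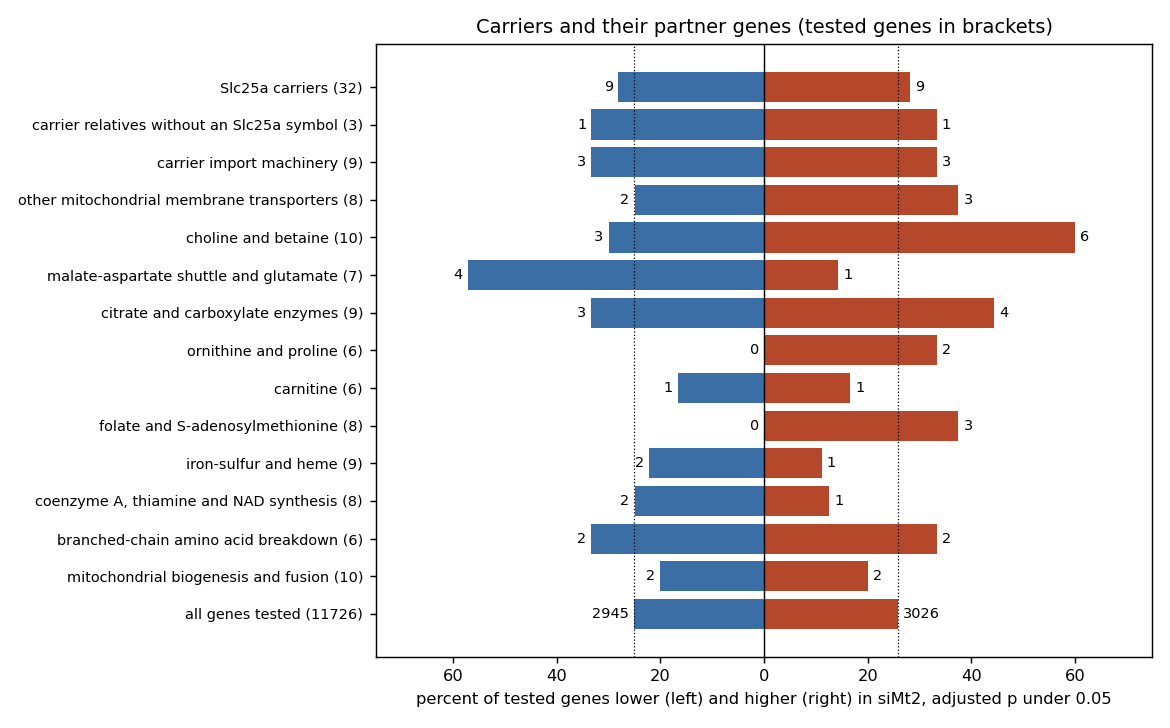
Percent of tested genes called lower (blue, left) and higher (red, right) in siMt2 at an adjusted p under 0.05, for the Slc25a carriers, each partner list and all genes tested; numbers beside the bars are genes, numbers in brackets the genes tested, and dotted lines give the shares over all genes tested. The carriers had 9 higher and 9 lower of 32, close to the 25.8% and 25.1% of all genes; lists of 3 to 10 genes give coarse shares.

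The 14 carriers under the filter had between 2 and 54 counts over all 6 libraries and were those numbered 2, 6, 18, 22, 23, 29, 34, 35, 43, 45, 47, 52, 53 and 54. Without the filter 1 of them, Slc25a47, was called. How reads were assigned where genes overlap is not known, and 12 of the 32 tested carriers overlap a protein-coding gene in the RefSeq annotation. Of the carriers called, Slc25a14 overlaps Zfp280c (log2 fold change 0.36, edgeR adjusted p = 0.0521) and Slc25a25 overlaps Naif1 (0.04, edgeR adjusted p = 0.896), neither of which passed the test. Slc25a11 overlaps Gp1ba, with 9 counts in siMt2 and 9 in siNT, and Slc25a24 overlaps Slc25a54, with 1 count in siMt2 and 1 in siNT. Slc25a48 overlaps Il9 and Gm3045l, Slc25a16 overlaps Dna2 and Slc25a13 overlaps Rpl31l14. None of those overlapping symbols has a row among the deposited counts, so their levels could not be read.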

How the data were processed

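For each library the authors deposited gene-level read counts, whole numbers without normalization. Per the submitters' processing notes, Trimmomatic 0.40, HISAT2 2.2.1, featureCounts, limma, DESeq2 and build rn6 were used, without roles or settings; strand and shared-read handling are not given in the sources used here, so levels of overlapping or near-identical genes are uncertain. Groups came from the sample titles. In 25 rows (0.260% of counts) gene names had become dates; they stayed in the fit and are not named. Of the files' columns 0 lacked a sample.

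Differences were tested with edgeR 4.0.16 under R 4.3.3 (filterByExpr with minimum count 10, TMM, robust quasi-likelihood test, two-sided, Benjamini-Hochberg over all 11726 genes tested, threshold 0.05) and the procedure was tested on simulated data. SE and 95% intervals are those of the fitted log2 fold change. Pairs of libraries within a group differed by a mean chi-square of 1.95 to 3.74 per gene, more than counting error alone would give. This value cannot tell separate cultures from separate preparations of the same culture. Alternatives were DESeq2 size factors, upper quartile scaling, library totals alone, no filter, a stricter filter, the replicate block, each library left out, DESeq2 1.42.0, limma-voom (limma 3.58.1) and libraries thinned to the smallest. Some single-gene results are not reported here, though the counts include those genes. The markers, paralog pairs and those called with a change of at least 0.5 are given in full, with up to 3 genes of the smallest adjusted p per partner list. The members, substrate classes and lists were chosen with earlier results of these data known.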

Additional observations from a re-analysis of the deposited data

How the results depend on the processing

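Over 15 alternatives the count of carriers called higher stayed at 9 except in libraries thinned to the smallest, where it was 8. The count called lower was 5 with DESeq2 (without Slc25a3, Slc25a17, Slc25a25 and Slc25a44), and lay between 5 and 8 with a library left out, the lowest without siNT replicate 3; it was 11 without the filter. Some of these counts include carriers not called in the full fit. Slc25a4 was added without siMt2 replicate 2 or siNT replicate 3, Slc25a47 without siMt2 replicate 2 or 3, and both without the filter. With the replicate number as a block it was 10, with Slc25a4 added, and 5897 of all genes were called; deviations of same-numbered libraries did not run together (Pearson r of -0.0018, -0.06 and 0.023 across genes), so the numbers were not taken as pairs. Slc25a48, Slc25a11, Slc25a1, Slc25a32, Slc25a37, Slc25a36, Slc25a33, Slc25a39, Slc25a24 and Slc25a38 were called in all 15 alternatives. Some values that did not pass changed sign with 1 library left out, with these ranges over all alternatives: Slc25a20 (between -0.013 and 0.26), Slc25a30 (between -0.060 and 0.10), Slc25a40 (between -0.10 and 0.10), Slc25a51 (between -0.76 and 0.12) and Mt2a (between -0.56 and 0.052). Paralog differences with a library left out lay between -0.82 and -0.60 for Slc25a12 to Slc25a13, 0.46 and 0.75 for Slc25a37 to Slc25a28, 0.16 and 0.43 for Slc25a39 to Slc25a40, 0.04 and 0.24 for Slc25a33 to Slc25a36, and -0.13 and 0.02 for Slc25a4 to Slc25a5. Class sums moved by less than 1 SD with library totals alone. Upper quartile scaling shifted the median of all genes by 0.039, the most of any scaling tried. Depth limits the 14 untested carriers and those below about 10 CPM, such as Slc25a51, whose interval spans -1.27 to 0.67.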
